A study of Mus musculus with 2 samples.

Results

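The 10 genes described here are the receptors for corticosteroid hormones and genes known to respond to them, chosen by symbol from the 32285 genes counted in each library. They are Nr3c1, Nr3c2, Fkbp5, Fkbp4, Zbtb16, Sgk1, Tsc22d3, Cdkn1a, Hsd11b1 and Pdk4. All 10 were present in the count tables and all had UMIs in both libraries (a UMI is a molecular tag that lets copies of 1 RNA molecule be counted once). Nuclear RNA came from the hippocampus of 3-month-old mice of the genotype Stra8L/-; Nestin-Cre, named Stra8-cKO in the labels, with 1 male and 1 female library. Nestin-Cre is a recombinase driven in neural progenitors, so its activity is expected in neurons, astrocytes and oligodendrocytes, and not by descent in microglia or vessel cells. Both groups carry the deletion, no library of another genotype was analysed here, and the labels do not say how many animals entered a library. Each comparison is therefore between 2 libraries: effects of sex, of the animals, of dissection and of the library itself cannot be told apart, no test was run, and the 95% intervals given cover counting error only.

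Corticosteroids act through a pair of nuclear receptors. The mineralocorticoid receptor, encoded by Nr3c2, binds corticosterone with high affinity and is known for its high level in hippocampal neurons. The glucocorticoid receptor, encoded by Nr3c1, binds it with lower affinity, is found in nearly all cells and is occupied mainly at the daily peak or under stress. Unliganded receptors sit in complexes with heat shock proteins, to which the immunophilins Fkbp4 and Fkbp5 attach: Fkbp4 favours transport of the receptor to the nucleus, whereas Fkbp5 lowers hormone binding and is itself induced by the receptor, which closes a feedback loop. Hsd11b1 is the enzyme that regenerates active corticosterone from its inactive keto form inside cells. Fkbp5, Zbtb16, Sgk1, Tsc22d3, Cdkn1a and Pdk4 are treated below as the 6 target genes.

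Promoter sequences are shown for 3 of these targets, whose levels were mostly higher in the female library, a direction that other targets shared. The windows are RefSeq's, on GRCm38.p6, and 8 of the 10 genes had an entry, with 16 windows in all; the windows run from 250 bases before to 50 bases after an annotated start. The bases before the start are printed 5′ to 3′, with half-sites of the receptor response element in capitals (AGAACA or its reverse complement TGTTCT, so both strands are covered).
Sgk1, chr10:21993640-21993889, plus strand: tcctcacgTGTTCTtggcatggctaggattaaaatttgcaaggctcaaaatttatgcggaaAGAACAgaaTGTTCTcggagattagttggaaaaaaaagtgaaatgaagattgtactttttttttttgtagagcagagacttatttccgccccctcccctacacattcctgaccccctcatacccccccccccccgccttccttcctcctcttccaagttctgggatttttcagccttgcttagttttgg
Fkbp5, chr17:28486150-28486399, minus strand: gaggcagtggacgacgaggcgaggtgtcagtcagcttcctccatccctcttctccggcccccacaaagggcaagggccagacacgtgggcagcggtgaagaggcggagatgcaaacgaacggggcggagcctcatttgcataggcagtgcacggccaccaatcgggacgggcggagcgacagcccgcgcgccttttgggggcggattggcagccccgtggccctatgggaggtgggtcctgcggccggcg
Tsc22d3, chrX:140600523-140600772, minus strand: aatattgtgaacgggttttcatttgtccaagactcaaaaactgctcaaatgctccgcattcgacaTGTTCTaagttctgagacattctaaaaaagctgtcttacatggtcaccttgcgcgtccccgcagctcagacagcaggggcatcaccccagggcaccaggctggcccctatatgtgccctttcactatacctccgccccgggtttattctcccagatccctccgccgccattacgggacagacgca
This Sgk1 window, 1 of 6 for the gene, held 3 half-sites, of which the last 2 form the full 15-base element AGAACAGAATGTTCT, from 189 to 175 bases before the start. The full element was searched as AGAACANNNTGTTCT, which overlaps the half-sites by construction. It was found in 3 of 32851 windows of the same length over all genes (0.00913%), and 3 or more half-sites were found in 102 of them (0.310%). The Tsc22d3 window, 1 of 3, held 1 half-site at base 66, and the Fkbp5 window held none. The Sgk1 and Tsc22d3 windows shown are those with the most half-sites for their gene. The shares of all windows therefore do not measure how unusual they are. Cdkn1a and Pdk4, the other targets with an entry, had no half-site in any window. At least 1 half-site was found in 4 of the 16 windows of these genes, all of Sgk1 or Tsc22d3, and in 19.0% of all windows. A match describes the letters in the window and shows no binding, and enhancers outside the windows were not read.

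The male library held 16174 barcodes and 103262825 UMIs, the female library 20150 barcodes and 108286856 UMIs, and 101 barcode sequences occurred in both. After filters on genes, mitochondrial share and doublets, 13757 male and 16834 female nuclei remained, with medians of 4317 and 2630 UMIs. Stra8 had 3 male and 6 female UMIs, and since which exons were deleted is not stated in the labels, this level does not check the deletion. Clustering was done without the 10 genes and the other genes of their pathway, and clusters were named from 8 markers per type. A class name here stands for nuclei resembling that type. No markers of CA2 pyramidal neurons were listed, so the CA3 class can hold CA2 nuclei. The 9 main classes, each of 200 or more nuclei per library, had 3 to 8 of their 8 markers over 2-fold above other nuclei in each library, the lowest being subiculum or entorhinal excitatory neurons with 4 (male) and 3 (female). Unnamed clusters held 1522 male and 5138 female nuclei. Within a main class the median depths of the libraries were closer than over all nuclei, for example 5071 and 5715 UMIs in granule neurons, 1653 and 1728 in oligodendrocytes and 1544 and 1600 in microglia or macrophages. Levels are given as CPM, counts per 1000000, the UMIs of a gene scaled to that total over the summed UMIs of a class in 1 library.

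Nr3c1, the glucocorticoid receptor gene (ENSMUSG00000024431; mm10 chromosome 18, 39410545 to 39519421, minus strand), was highest in microglia or macrophages and lowest in CA3 pyramidal neurons in both libraries. Microglia or macrophages had 229.8 CPM in the male library (interval 205 to 257) and 219.7 CPM in the female library (195 to 247). CA3 pyramidal neurons, the relay between the dentate gyrus and CA1, had 35.1 CPM (31.5 to 39) and 25.6 CPM (22.7 to 28.9). Among the main neuronal classes, CA1 pyramidal neurons and subiculum or entorhinal neurons had the highest values in either library, though in the female library not beyond the interval of granule neurons, with 107 and 57.8 CPM and 109.6 and 57.7 CPM in the male and female library, in that order here and below. Thalamic or habenular neurons, read in the female library alone, stood above both there, at 82.5 CPM (70.4 to 96.1). Granule neurons of the dentate gyrus had 77.2 and 55.2 CPM and GABAergic interneurons 44.8 and 36 CPM. The other glia lay between microglia and the main neuronal classes in the female library: astrocytes had 139.9 and 108 CPM, oligodendrocytes 144 and 108 CPM and their precursors 129 and 107 CPM, and these 3 did not differ beyond their intervals within a library. In the male library the intervals of precursors and of subiculum or entorhinal neurons also overlapped.

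Nr3c1 was lower in the female library in 9 of 9 main classes, by log2 ratios (female over male, with 5 CPM added to each) from -0.87 to -0.06, and the interval lay below 0 in 7. The largest differences were in subiculum or entorhinal neurons (-0.87, interval -1.04 to -0.70) and CA1 pyramidal neurons (-0.84, -0.96 to -0.72). Oligodendrocyte precursors (-0.26, -0.60 to 0.08) and microglia or macrophages (-0.06, -0.30 to 0.17) did not differ beyond counting error. No class passed 2-fold. The median gene of a class stood between -0.13 and -0.06 on the same scale, and 33.5% (subiculum or entorhinal neurons) to 43.7% (microglia or macrophages) of genes with at least 20 UMIs had a higher CPM in the female library, so a lower value in the female library was the more common direction.

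Nr3c2, the mineralocorticoid receptor gene (ENSMUSG00000031618; chromosome 8, 76899442 to 77245012, plus strand), was highest in the principal neurons: CA1 pyramidal neurons had 1314 and 1363 CPM, CA3 pyramidal neurons 1241 and 1326 CPM and granule neurons 1165 and 1227 CPM. In every one of these classes at least 94.4% of nuclei had an Nr3c2 UMI in either library; with each nucleus thinned to 1000 UMIs the shares were 60.9% to 69.3%, against 16.4% in female oligodendrocyte precursors, the lowest class. Subiculum or entorhinal neurons followed with 523 and 893 CPM. GABAergic interneurons (424 and 501 CPM) and astrocytes (439.5 and 431 CPM) were at about the same level in the male library. Microglia or macrophages had 262 and 316 CPM, oligodendrocytes 241 and 205 CPM and their precursors 234 and 174 CPM. Of the 5 classes that reached 50 nuclei in the female library alone, fibroblasts or meningeal cells had 990.4 CPM and the other 4 between 427 CPM (thalamic or habenular neurons) and 528 CPM (endothelial cells).

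Between the libraries Nr3c2 was nearly level in the principal neurons, with log2 ratios of 0.07 in granule neurons, 0.05 in CA1 and 0.09 in CA3 pyramidal neurons. It was higher in the female library in subiculum or entorhinal neurons (0.77, interval 0.71 to 0.83) and lower in oligodendrocyte precursors (-0.42, -0.68 to -0.16). The subiculum or entorhinal class was made of different clusters in the libraries. Cluster 14 held 482 of its 928 male nuclei and under 50 female nuclei, at 403 CPM; in the 2 clusters with at least 50 nuclei in both libraries the ratio was 0.63 (cluster 13, 0.50 to 0.75) and 0.11 (cluster 21, 0.02 to 0.20). The Nr3c1 ratio in those clusters was -0.92 and -1.08.

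**Figure D1:**
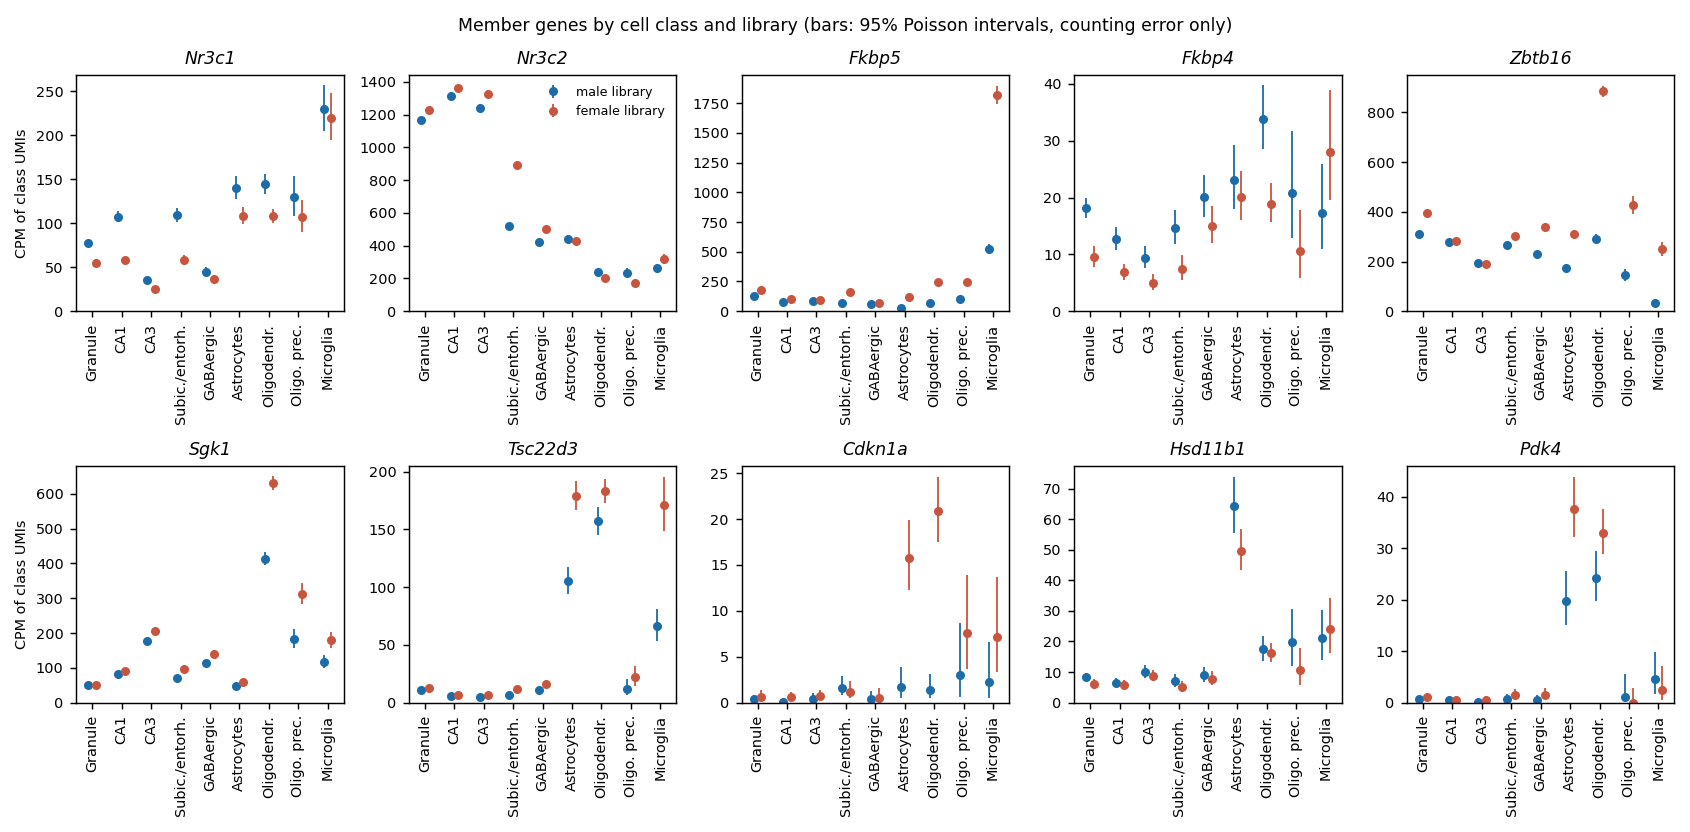
Level of each of the 10 genes (CPM of class UMIs, linear axis from 0) in the 9 main classes, with male and female libraries in separate colours and bars for 95% Poisson intervals. Nr3c2 is highest in granule, CA1 and CA3 neurons, Nr3c1 and Fkbp5 in microglia or macrophages, and Sgk1, Tsc22d3 and Pdk4 in glia.

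The balance of the receptors was described as the share of Nr3c1 in the sum of Nr3c1 and Nr3c2 UMIs. Pooled over classes, it was lower in neurons than in glia in both libraries. Over all neuronal classes it was 6.77% in the male (6.58% to 6.96%) and 4.15% in the female library (3.99% to 4.32%). Thalamic or habenular neurons entered the female pool alone. Over the 4 glial classes it was 33.4% (32% to 34.8%) and 29.3% (28.1% to 30.5%). With called doublets kept the glial shares were 19.4% and 18.6%. CA3 pyramidal neurons had the lowest share, at 2.75% and 1.9%. Microglia or macrophages had the highest, at 46.7% and 41%. Oligodendrocytes had 37.4% and 34.4%, their precursors 35.6% and 38.2%, and astrocytes, at 24.1% and 20%, were the lowest of the main glia. Among neurons the shares were 6.21% and 4.3% in granule, 7.55% and 4.06% in CA1, 9.56% and 6.71% in GABAergic, and 17.3% and 6.08% in subiculum or entorhinal neurons. Within the last class the share was 23.9% and 9.35% in cluster 13 and 9.44% and 4.16% in cluster 21, so that male cluster 13 stood near male astrocytes. Female thalamic or habenular neurons had 16.2% (14% to 18.6%), an interval that met that of female astrocytes (18.4% to 21.7%). The share was lower in the female library in 8 of 9 main classes, the exception being oligodendrocyte precursors. The intervals of the libraries overlapped in precursors, oligodendrocytes and microglia or macrophages.

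The share is not a ratio of receptor transcripts: where intronic reads are counted, a longer gene can give more UMIs per transcript, and whether they were is not known from the sources used here. Nr3c2 spans 346 kb against 109 kb for Nr3c1. With UMIs divided by that span, the Nr3c1 share was 73.6% and 68.8% in microglia or macrophages, 65.5% and 62.5% in oligodendrocytes, 50.3% and 44.3% in astrocytes, 20.6% and 11.9% in CA1 and 8.24% and 5.78% in CA3 pyramidal neurons. On that scale Nr3c1 made up most of the receptor signal in oligodendrocytes, their precursors and microglia of both libraries, and the smaller part in every main neuronal class. Among the classes read in the female library alone, endothelial cells had an Nr3c1 share of 19.4% of UMIs, pericytes or smooth muscle cells 18.2%, thalamic or habenular neurons 16.2%, ependymal cells 8.61% and fibroblasts or meningeal cells 6.8%.

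**Figure D2:**
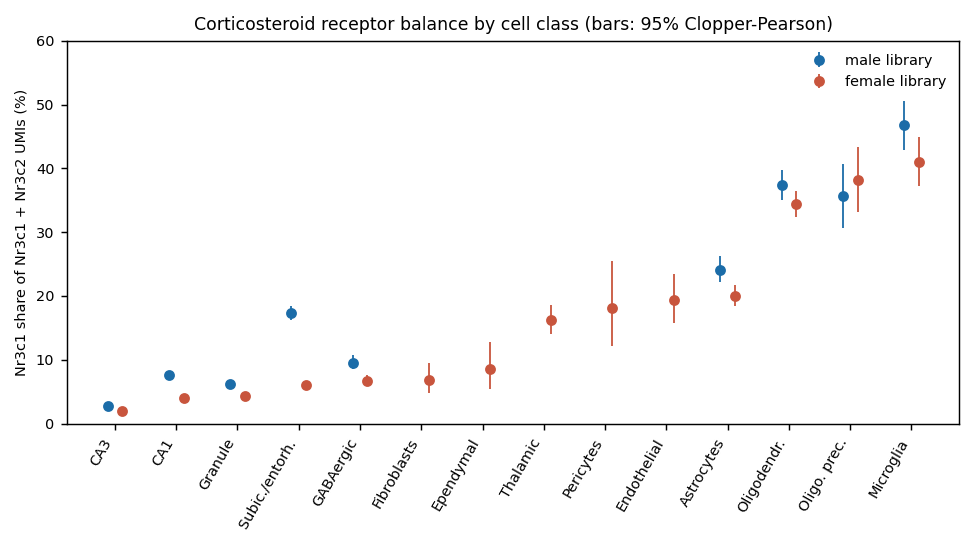
Share of Nr3c1 in Nr3c1 plus Nr3c2 UMIs (percent, vertical axis) by cell class, ordered by the female library, for classes with at least 50 nuclei in that library; bars are 95% Clopper-Pearson intervals. Neurons lie at the left, from 1.9% in female CA3, and oligodendrocytes, their precursors and microglia at the right, up to 46.7% in male microglia or macrophages.

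Fkbp4, the co-chaperone that favours receptor transport (ENSMUSG00000030357, chromosome 6, 128429735 to 128438677), was detected at low levels. It ranged from 9.33 CPM (CA3) to 33.8 CPM (oligodendrocytes) in the male library and from 4.94 CPM (CA3) to 28 CPM (microglia or macrophages) in the female library. It was lower in the female library in 8 of 9 classes, with the interval below 0 in 6; granule neurons had 18.1 and 9.49 CPM (-0.67, -0.89 to -0.45) and oligodendrocytes 33.8 and 18.9 CPM (-0.70, -0.99 to -0.41). In microglia or macrophages the value was 0.57 with an interval that included 0, and it was -0.09 when called doublets were kept. Fkbp4 spans only 9 kb; per kb its level in male granule neurons was 2.02 CPM against 1.09 CPM for Fkbp5, and in female microglia 3.13 against 15.4 CPM.

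Hsd11b1, the corticosterone-regenerating enzyme (ENSMUSG00000016194; chromosome 1, 193221634 to 193264075, overlapped on the opposite strand by Lamb3), was highest in astrocytes, at 64.3 and 49.8 CPM. Its intervals there (55.6 to 74 and 43.5 to 56.8) overlapped those of no other main class. Microglia or macrophages had 21 and 24 CPM, oligodendrocytes 17.4 and 16.3 CPM and neurons between 4.93 and 10 CPM. The ratio between libraries was -0.34 in astrocytes (-0.60 to -0.08), and 0.00 when called doublets were kept. It lay furthest from 0 in oligodendrocyte precursors (-0.67, -1.42 to 0.12), from 20 and 14 UMIs, and the interval lay below 0 in 2 of 9 classes. Hsd11b2, the enzyme that inactivates corticosterone in kidney, had fewer than 50 UMIs over both libraries in each main class.

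Fkbp5 (ENSMUSG00000024222; chromosome 17, 28399094 to 28517527, minus strand), the co-chaperone induced by the receptor, was highest in microglia or macrophages of both libraries and higher in the female library in 9 of 9 main classes, though in CA3 pyramidal neurons the sign was not stable. Microglia or macrophages had 523 CPM in the male (interval 485 to 563) and 1820.1 CPM in the female library (1746 to 1896), a log2 ratio of 1.79 (1.67 to 1.91). A UMI was found in 52.2% and 84.9% of these nuclei, and in 39.2% and 79.1% once thinned to 1000 UMIs. The lowest share, in male astrocytes, was 6.89% (2.22% thinned, with a median depth of 2756 UMIs against 1544 in male microglia), and the microglial shares of both libraries lay above it.

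Among the main classes the Fkbp5 ratio was largest in astrocytes, at 71 UMIs and 23.4 CPM in the male and 523 UMIs and 118 CPM in the female library (2.11, 1.80 to 2.42). With called doublets kept it was 1.13 in astrocytes and 1.48 in microglia or macrophages, and with doublet clusters removed only over 40% it was 1.38 in astrocytes. Male astrocytes had the lowest Fkbp5 level of all classes, whereas female astrocytes stood above female CA1 pyramidal neurons. Oligodendrocytes had 73.1 and 242 CPM (1.66, 1.49 to 1.83) and their precursors 99.8 and 246 CPM (1.26, 0.95 to 1.58). Subiculum or entorhinal neurons were the only main neuronal class past 2-fold, at 72.4 and 163 CPM (1.12, 0.97 to 1.27). With the nuclei thinned to 1000 UMIs that value was 0.98, with coarser clusters 0.82, and by cluster it was 1.27 in cluster 13 and 0.54 in cluster 21. The other neurons differed less: granule neurons had 129 and 175 CPM (0.43, 0.35 to 0.51), CA1 pyramidal neurons 73.8 and 103 CPM (0.46, 0.34 to 0.57), GABAergic interneurons 57.1 and 69.8 CPM (0.27) and CA3 pyramidal neurons 89.6 and 94.5 CPM (0.07, interval including 0). In CA3 the value was -0.01 when thinned and -0.05 with coarser clusters, and by cluster it was -0.20 in cluster 10 (-0.39 to -0.00), 0.30 in cluster 23 (0.06 to 0.53) and -0.01 in cluster 24 (-0.28 to 0.26). In the female library fibroblasts or meningeal cells had 933 CPM, second to microglia, and endothelial cells 172 CPM.

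An antisense RNA listed as Gm22146 (ENSMUSG00000117084; chromosome 17, 28446500 to 28456457) lies inside Fkbp5 on the opposite strand, and the counting's strand setting is not known from the sources used here, so reads of the pair cannot be told apart with certainty. Gm22146 had 45.1 and 177 CPM in microglia or macrophages, in oligodendrocytes 11.3 and 32.9 CPM, and in astrocytes 0.99 and 14 CPM. It followed Fkbp5 at a fraction of its level, with 7.85 and 7.28 Fkbp5 UMIs for each of its own in granule neurons and 11.6 and 10.3 in microglia or macrophages.

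Zbtb16 (ENSMUSG00000066687; chromosome 9, 48654297 to 48836222), a zinc finger transcription factor, had a level that was high in nearly every class and low in male microglia. Microglia or macrophages had 44 UMIs and 33 CPM in the male (24 to 44.4) and 311 UMIs and 248 CPM in the female library (222 to 278), a ratio of 2.74 (2.32 to 3.16), and 1.24 with called doublets kept. The share of microglial nuclei with a UMI was 4.87% and 28.1% (3.01% and 19% thinned); the male share was the lowest of all main classes and cannot be told apart from free RNA. Oligodendrocytes had 293 and 886 CPM (1.58, 1.49 to 1.67), which made the female oligodendrocytes the highest class for this gene, while in the male library granule neurons led with 312 CPM. Oligodendrocyte precursors had 144 and 427 CPM (1.53, 1.28 to 1.80) and astrocytes 176 and 309 CPM (0.80, 0.66 to 0.94). In precursors the ratio was 0.95 when called doublets were kept. Among neurons the ratio ran from -0.02 in CA3 to 0.56 in GABAergic interneurons, and 279.5 and 283 CPM in CA1 pyramidal neurons did not differ beyond counting error. The CA3 value was 0.32 when thinned and 0.07 when centred on the median gene. By CA3 cluster it was -0.23 in cluster 10 (-0.37 to -0.10), -0.14 in cluster 23 (-0.31 to 0.04) and 0.03 in cluster 24. The CA1 value was -0.09 when thinned.

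Sgk1 (ENSMUSG00000019970; chromosome 10, 21882184 to 21999903), a kinase that acts on ion channels and whose promoter is shown above, was highest in oligodendrocytes, at 414 and 631 CPM. Their precursors had 184 and 312 CPM and CA3 pyramidal neurons, the highest neurons, 177 and 207 CPM. Astrocytes and granule neurons were the lowest, with 46.9 and 59.3 CPM and 51.6 and 50.4 CPM. The ratio between libraries was above 0 in 8 of 9 classes and never passed 2-fold: it was 0.75 in oligodendrocyte precursors (0.50 to 1.00), 0.60 in oligodendrocytes (0.52 to 0.68), 0.60 in microglia or macrophages (0.31 to 0.89) and -0.03 in granule neurons (-0.16 to 0.11). In astrocytes it was 0.31, and -0.30 under the stricter filter on nuclei.

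Tsc22d3 (ENSMUSG00000031431; chromosome X, 140539528 to 140600659), which encodes the anti-inflammatory protein GILZ, was largely a glial and vascular transcript. Oligodendrocytes had 157 and 183 CPM, astrocytes 105 and 179 CPM and microglia or macrophages 66.1 and 171 CPM, against 4.77 to 16.2 CPM in the main neurons. Oligodendrocyte precursors, with 11.9 and 21.9 CPM, were near the neurons and apart from mature oligodendrocytes. In the female library fibroblasts or meningeal cells had 213 CPM and endothelial cells 140.4 CPM. Tsc22d3 was higher in the female library in 9 of 9 main classes, with the interval above 0 in 5. In CA3 pyramidal neurons it was 0.22, and -0.63 when thinned and -0.03 with coarser clusters. The ratio was 1.31 in microglia or macrophages (0.96 to 1.66), 0.74 in astrocytes (0.56 to 0.92) and 0.22 in oligodendrocytes (0.09 to 0.35). The microglial value was 0.91 with called doublets kept and 0.21 under the stricter filter, which left 94 male and 23 female microglial nuclei.

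Cdkn1a (ENSMUSG00000023067; chromosome 17, 29090976 to 29100727), the cell cycle inhibitor p21, had few UMIs and reached 20 over both libraries in 2 main classes. Astrocytes had 5 male and 70 female UMIs (1.65 and 15.8 CPM; 1.64, 1.16 to 1.96), and oligodendrocytes 6 and 141 UMIs (1.41 and 20.8 CPM; 2.01, 1.64 to 2.26). The 5 CPM added to each side hold these ratios down, and with 1 CPM added they were 2.66 and 3.18. Female endothelial cells had the highest level, 60.4 CPM from 40 UMIs. The 8 endothelial markers were also higher in the female library in the same classes, summing to 5.61 and 16.5 CPM in astrocytes, none at 0, and to 7.75 and 15.4 CPM in oligodendrocytes, with 1 at 0 in the male library; their part in the Cdkn1a values was not tested. Pdk4 (ENSMUSG00000019577; chromosome 6, 5483351 to 5496309), a kinase that turns cells from glucose to fatty acid use, was likewise glial: astrocytes had 19.8 and 37.6 CPM (0.78, 0.42 to 1.14; 0.07 under the stricter filter) and oligodendrocytes 24.2 and 32.9 CPM (0.38, 0.09 to 0.67). No main neuronal class exceeded 1.43 CPM. Female oligodendrocyte precursors had 0 Pdk4 UMIs, with an interval that reached up to 2.79 CPM, and the male precursors had 1.

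Among target genes with at least 20 UMIs in a class, the direction was shared in the main glial classes with the main processing. The size differed by cell type. Under 20 UMIs, Pdk4 was lower in the female library in precursors (1 male and 0 female UMIs) and microglia or macrophages (6 and 3). Cdkn1a was higher in both (3 and 10, and 3 and 9). In granule, CA1 and CA3 neurons some ratios lay near 0, on either side of it, with intervals that included 0. Target genes with at least 20 UMIs in a class were higher in the female library in 6 of 6 cases in astrocytes (against 43% of all genes). The counts were 6 of 6 in oligodendrocytes (37.7%), 4 of 4 in oligodendrocyte precursors (43.5%) and 4 of 4 in microglia or macrophages (43.7%). In astrocytes and oligodendrocytes Cdkn1a reached 20 UMIs only through the female library, with 5 male and 70 female and 6 and 141 UMIs. Its place in those counts, and in the medians and 2-fold counts below, therefore follows from its direction. Target genes under 20 UMIs were left out whichever way they pointed. In neurons the counts were 4 of 5 in granule (37.1%), 4 of 4 in CA1 (36.2%), 3 of 4 in CA3 (34.6%), 4 of 4 in subiculum or entorhinal (33.5%) and 4 of 4 in GABAergic neurons (36.3%). The CA1 count was 2 with nuclei thinned to 1000 UMIs, and the CA3 count was 1 with coarser clusters. The median log2 ratio of the measured targets was 1.55 in microglia or macrophages, 1.09 in oligodendrocytes, 1.01 in precursors and 0.79 in astrocytes, and between 0.15 (CA3) and 0.49 (subiculum or entorhinal) in neurons. The share of genes with at least 50 UMIs past 2-fold toward the female library was 0.418% in astrocytes, where 2 targets passed; 0.545% in oligodendrocytes, where 3 passed; 0.661% in precursors, where 2 passed; 1.11% in microglia or macrophages, where 3 passed; and 0.564% in subiculum or entorhinal neurons, where 1 passed. No target passed in granule (0.131%), CA1 (0.0748%), CA3 (0.183%) or GABAergic neurons (0.334%). None of the 10 genes passed 2-fold toward the male library, where the share of all genes was 0.309% in granule, 0.135% in CA1, 0.107% in CA3, 1.02% in subiculum or entorhinal and 0.13% in GABAergic neurons, 0.784% in astrocytes, 0.569% in oligodendrocytes, 0.715% in precursors and 1.19% in microglia or macrophages.

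**Figure D3:**
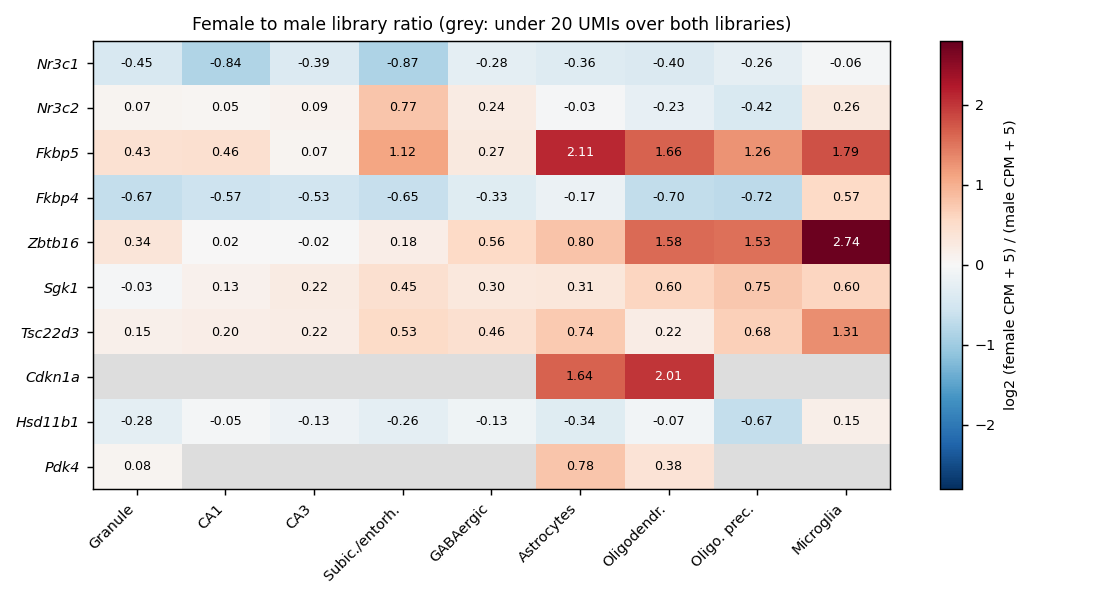
Log2 ratio of female over male CPM (5 CPM added to each) for the 10 genes in the 9 main classes, with the value in each cell and grey where a gene had under 20 UMIs over both libraries. The values above 1 lie in glia, up to 2.74 for Zbtb16 in microglia or macrophages, except Fkbp5 in subiculum or entorhinal neurons, while the Nr3c1 row is below 0 throughout.

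Some properties of the libraries moved with these values, and their part in the results was not tested. The median mitochondrial share was 1.57% in male and 1.83% in female astrocytes, 1.41% and 2% in oligodendrocytes, 0.94% and 1.48% in their precursors, 1.52% and 2.13% in microglia or macrophages, and 0.503% and 0.645% in granule neurons. Markers of other types were present in the glia of both libraries: the 8 oligodendrocyte markers summed to 1777 and 2737 CPM in microglia or macrophages and to 1423 and 2560.1 CPM in precursors, none at 0. The 8 choroid plexus markers, Ttr among them, went the other way, with 2764 and 313 CPM in microglia or macrophages and 3589 and 1172 CPM in oligodendrocytes. Fibroblast or meningeal markers, of the other class with high Fkbp5, summed to 71.3 and 122 CPM in microglia or macrophages, with 2 of 8 at 0 in each library, and to 116 and 117 CPM in astrocytes. Endothelial markers summed to 30 and 20 CPM in microglia or macrophages, with 2 of 8 at 0 in each library.

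Oligodendrocytes fell into 2 clusters that followed the libraries. Cluster 1 held 108 male and 3395 female nuclei and cluster 4 held 2237 and 176. The female level of Fkbp5 was higher within each: 79.8 and 246 CPM in cluster 1 (1.56, 0.89 to 2.31) and 72.7 and 166 CPM in cluster 4 (1.13, 0.70 to 1.55). Zbtb16 had 339 and 898 CPM (1.39) and 290.4 and 641 CPM (1.13). Sgk1 stood at 0.90 and 0.26, and Nr3c1 at -0.48 and -0.84. The main microglial cluster, with 771 and 696 nuclei and without the nuclei of the Mrc1-high macrophage cluster, had 532 and 1828 CPM of Fkbp5 and 32.3 and 231 CPM of Zbtb16. Of the unnamed nuclei, cluster 7, of low UMI count (638 male and 914 female nuclei), had 41.7 and 59.2 CPM of Fkbp5. In the largest unnamed cluster, cluster 2 (80 male and 2537 female nuclei), Fkbp5 was at 1.05 (0.17 to 2.06). Zbtb16 was at -0.67 there (-1.04 to -0.28) and Tsc22d3 at -0.03. In unnamed clusters 6, 12 and 33 Fkbp5 stood at 0.32, 0.19 and 0.45 and Zbtb16 at 0.48, -0.09 and 0.12.

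Within each main neuronal class of more than 1 cluster, the cluster with the most Nr3c2 was also the one with the most Fkbp5. In the CA3 class, cluster 23 had 1948 and 1895 CPM of Nr3c2 and 138 and 170.3 CPM of Fkbp5. Cluster 10 had 1001 and 1055 CPM and 70 and 60.3 CPM. Cluster 23 was led by Gm43154, Map3k15 and St8sia6. Without CA2 markers in the lists, it could not be told whether its nuclei were CA3 or CA2 neurons. In subiculum or entorhinal neurons, cluster 21 had 1052 and 1134 CPM of Nr3c2 with 139 and 204 CPM of Fkbp5, and cluster 13 had 379 and 587 CPM with 36.6 and 95 CPM. GABAergic cluster 25 had 675 and 689 CPM of Nr3c2 and 113 and 107 CPM of Fkbp5, above cluster 16 with 262 and 357 CPM and 34.1 and 58.3 CPM. Across classes the order differed: subiculum or entorhinal cluster 21 had no less Fkbp5 than CA3 cluster 23 with its higher Nr3c2, and CA1 pyramidal neurons (cluster 3) had 1314 and 1363 CPM of Nr3c2 with 73.8 and 103 CPM of Fkbp5. Granule cluster 0 had 1212 and 1252 CPM of Nr3c2 with 134 and 179 CPM of Fkbp5, and granule cluster 9 1085 and 1039 CPM with 120.3 and 145 CPM. Correlations were taken over the 12 named neuronal clusters of at least 50 nuclei in a library, on CPM without logs. The sets differed: cluster 14 entered for the male library alone and thalamic or habenular cluster 31 for the female library alone. Unnamed clusters were left out. The Pearson correlation of Nr3c2 and Fkbp5 was 0.74 for the male and 0.51 for the female library (Spearman 0.69 and 0.54). That of Nr3c1 and Fkbp5 was -0.03 and 0.29. The correlation of Nr3c2 with Zbtb16 was 0.20 and -0.11, with Sgk1 0.23 and 0.05 and with Tsc22d3 -0.38 and -0.73. That of Nr3c1 was -0.74 and -0.63 with Sgk1, 0.20 and 0.16 with Zbtb16 and -0.17 and 0.47 with Tsc22d3. This look at clusters was chosen after the values were seen, and clusters of 1 library share its free RNA and its depth, so the coefficients are descriptions.

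Over cell classes, receptor balance was compared with target levels, as log2 CPM (5 CPM added), in each library apart, over 9 male and 14 female classes. The Nr3c1 share and Tsc22d3 had a Pearson correlation of 0.72 and 0.53 (Spearman 0.80 and 0.72). Fkbp5 had 0.42 and 0.53 (Spearman 0.05 and 0.56), so that in the male library the rank order of Fkbp5 had almost no relation to the balance. Zbtb16 had -0.66 and 0.27, Sgk1 0.41 and 0.61, Cdkn1a 0.86 and 0.39 and Pdk4 0.56 and 0.27. Cdkn1a had between 1 and 11 UMIs in each male class, and its male intervals overlapped from each class to the next in rank. Male Pdk4 had at most 16 UMIs in every class but astrocytes and oligodendrocytes. The male coefficients of these genes therefore rest largely on values near the floor. Of the 6 targets, Zbtb16 was the 1 whose correlation differed in sign between the libraries. Fibroblasts or meningeal cells lay off the pattern, with an Nr3c1 share of 6.8% and 933 CPM of Fkbp5, and so did male astrocytes, with 24.1% and 23.4 CPM. The classes of a library share free RNA and are not replicates.

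**Figure D4:**
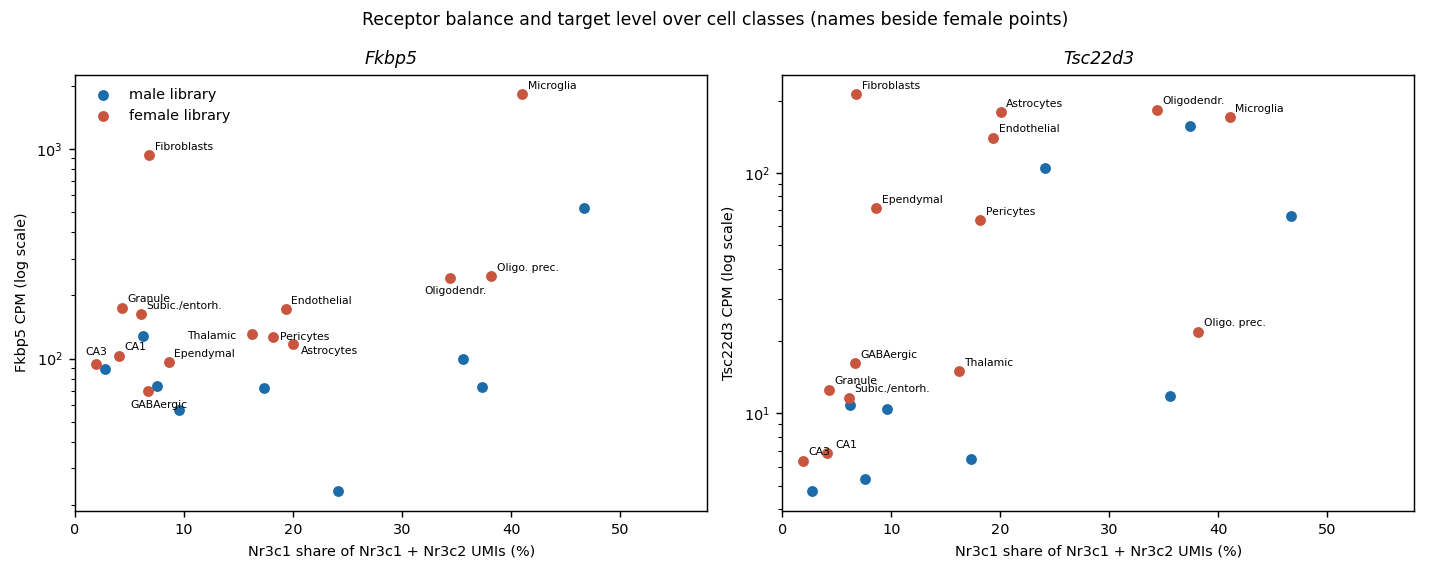
Nr3c1 share of Nr3c1 plus Nr3c2 UMIs (percent, horizontal axis) against Fkbp5 and Tsc22d3 levels (CPM, log axis); each point is a cell class of at least 50 nuclei in 1 library. Fkbp5 ranges from 23.4 CPM in male astrocytes to 1820.1 CPM in female microglia or macrophages.

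The wider pathway was read from a list of 18 other target genes of the glucocorticoid receptor and a list of 18 chaperones, coregulators, Hsd11b2 and the steroid exporter Abcb1a. Of the other targets measured in a class, 14 of 16 were higher in the female library in astrocytes (against 43% of all genes), 14 of 15 in microglia or macrophages (43.7%), 11 of 13 in oligodendrocyte precursors (43.5%), 11 of 16 in oligodendrocytes (37.7%), 11 of 15 in GABAergic (36.3%) and 10 of 15 in subiculum or entorhinal neurons (33.5%). In granule, CA1 and CA3 neurons the counts were 8 of 16 (37.1%), 10 of 16 (36.2%) and 8 of 16 (34.6%). Some genes reached 20 UMIs only through the female library. In precursors these included Nfkbia (4 male and 35 female UMIs), Hif3a (5 and 26) and Gjb6 (6 and 15). Their place in the count therefore follows from their direction. The median ratio was 0.45 in astrocytes and -0.01 in granule neurons, where the median of all genes was -0.06 and -0.09. Past 2-fold toward the female library were 1 gene of the list in astrocytes (0.418% of all genes), 1 in oligodendrocytes (0.545%), 2 in precursors (0.661%), 3 in microglia or macrophages (1.11%) and 2 in GABAergic interneurons (0.334%). They were Nfkbia, the NF-kappaB inhibitor, in astrocytes (39.6 and 87 CPM; 1.04) and in microglia or macrophages (25.5 and 67.9 CPM; 1.26). Errfi1, a brake on epidermal growth factor signalling, passed in oligodendrocytes (69.5 and 157 CPM; 1.12), their precursors (1.13) and GABAergic interneurons (1.33). Dusp1, a phosphatase that turns off MAP kinases, passed in GABAergic interneurons (4.72 and 26.9 CPM; 1.71) and in microglia or macrophages (1.45). In microglia or macrophages Dusp1 had 11 male and 39 female UMIs. It met the UMI minimum for a 2-fold call there only through the female library. Its place among the 3 genes of that class therefore follows from its direction. Mertk, a receptor for the clearance of dying cells, passed in oligodendrocyte precursors (1.11), and Sult1a1 in microglia or macrophages (1.15). Hif3a, at 0.98 in oligodendrocytes, was just under 2-fold. Several genes of the list had intervals below 0. Glul, the glutamine synthetase gene, was at -0.52 in subiculum or entorhinal and -0.42 in CA1 neurons and -0.09 in astrocytes. Per1, a circadian clock gene, was at -0.47 in granule, -0.34 in CA1 and -0.33 in subiculum or entorhinal neurons. The metallothionein gene Mt1 was at -0.48 in subiculum or entorhinal neurons, and Klf9, a transcription factor gene, at -0.50 in microglia or macrophages. The same 3 genes had intervals above 0 in other classes. Per1 was at 0.61 in GABAergic interneurons and 0.52 in microglia or macrophages. Mt1 was at 0.39 in oligodendrocyte precursors and 0.24 in astrocytes. Klf9 was at 0.53 in GABAergic interneurons, 0.35 in oligodendrocytes and 0.25 in astrocytes.

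Most genes of the list of chaperones and coregulators had lower values in the female library. Higher values there were found for 1 of 16 measured genes in granule neurons (against 37.1% of all genes), 3 of 17 in CA1 (36.2%), 2 of 16 in CA3 (34.6%), 3 of 16 in subiculum or entorhinal (33.5%), 3 of 16 in GABAergic neurons (36.3%), 2 of 16 in oligodendrocytes (37.7%), 2 of 16 in astrocytes (43%), 4 of 16 in microglia or macrophages (43.7%) and 5 of 16 in oligodendrocyte precursors (43.5%), the class with the most. Hspa8, the constitutive Hsp70 that loads receptors onto Hsp90, was lower in the female library in 9 of 9 classes: granule neurons had 283 and 107 CPM (-1.37), and subiculum or entorhinal (-1.15) and CA3 pyramidal neurons (-1.13) were also past 2-fold. Stip1, the adaptor between Hsp70 and Hsp90, was at -1.06 in subiculum or entorhinal neurons. These were the 4 values past 2-fold toward the male library, where 0.309% of granule, 0.107% of CA3 and 1.02% of subiculum or entorhinal genes were. The Hsp90 gene Hsp90aa1 was at -0.70 in granule neurons and -0.25 in oligodendrocytes. The coactivator gene Ncoa2 was at 0.12 and 0.19 in the same classes, and among chaperone genes Bag1 was at 0.09 in oligodendrocytes and Ppid at 0.03 in CA1 neurons, both with intervals that included 0.

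**Figure D5:**
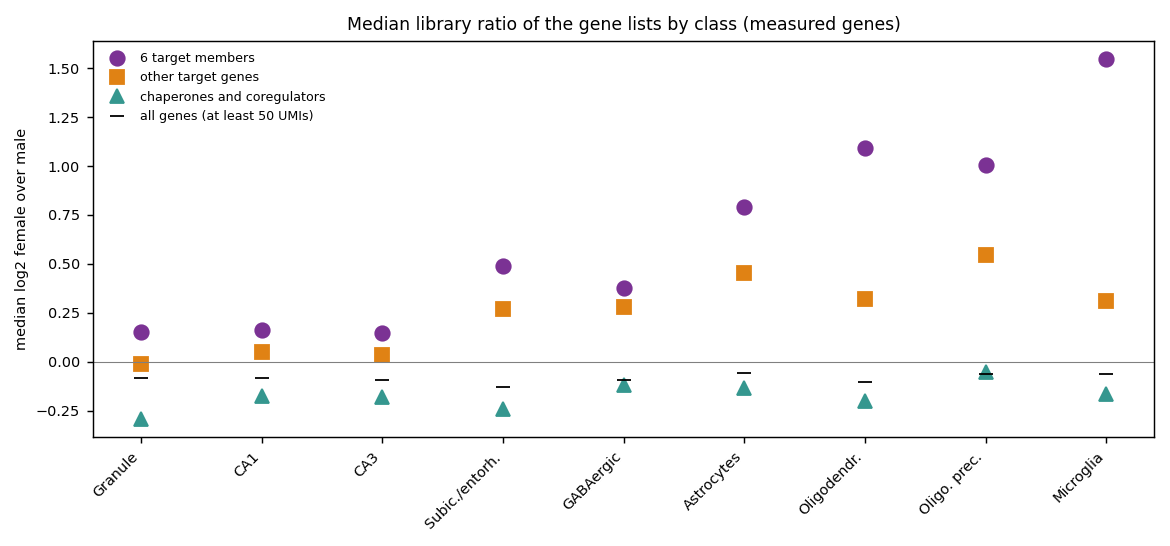
Median log2 ratio of female over male CPM by main class for the 6 target genes, the 18 other target genes and the 18 chaperones and coregulators (genes with at least 20 UMIs), with a bar for all genes with at least 50 UMIs. The target genes lie highest in glia, up to 1.55 in microglia or macrophages, and the bars for all genes lie between -0.13 and -0.06.

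The genes whose level over cell classes was most like each receptor were found by the lower of the 2 libraries' Pearson correlations of log2 CPM (5 CPM added), among 10465 genes. For Nr3c2 these were St6galnac5 (0.93 in each library), Prkag2, Celf2, Cap2 and Pigk. For Nr3c1 they were Ube2l3 (0.89 and 0.92), AI987944, Ndufaf8, Calm2 and Bloc1s2. Fkbp5 was most like its antisense partner Gm22146 (0.97 and 0.96), then Pds5a, Dennd4a, Hps3 and Mtmr3. These rest on 9 male and 14 female classes and are descriptions.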

How the data were processed

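The authors deposited raw counts, UMIs per gene and barcode; per the file headers Cell Ranger 7.0.1 produced them. The submitters' processing notes name bcl2fastq 2.20.0.422 and the build mm10. Annotation release, strand setting, treatment of intronic reads and the rule for calling barcodes: not given in the sources used here. Deposited lists of barcodes and gene identifiers hold names (unit other) and no measurement.

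Barcodes needed 500 genes or more and no more than 5% mitochondrial UMIs, which kept 16034 male and 19251 female. Scrublet called 9.57% of male nuclei as doublets; it called 0% of the female nuclei, so those at the top 8% of scores were taken (7.51%). Called nuclei and clusters with over 30% of them were removed; that cutoff was chosen after seeing the data. Clustering used scanpy 1.11.5 in Python 3.11.15: 3000 variable genes, 40 components, 15 neighbours and Leiden resolution 1 (leidenalg 0.10.2), without integration and without 66 genes (the 10 genes, their pathway, sex-linked checks, Stra8 and mitochondrial genes).

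UMIs were summed per class and library and given as CPM. Intervals are exact at 95%: Poisson for levels, Clopper-Pearson for shares, conditional binomial for ratios. Ratios are log2 of female CPM plus 5 over male CPM plus 5, which understates low genes. Measured means at least 20 UMIs over both libraries, and past 2-fold also needs at least 50. The ratio computation was tested on simulated data. Gene positions are from GENCODE vM21 (32158 of 32285 identifiers matched) and promoters from RefSeq GRCm38.p6. The text names the 10 genes and the 5 most alike genes. From the other lists it names the 2 genes per main class with the largest ratio each way, chosen further as examples. These needed at least 50 UMIs. Sult1a1 and the Per1, Klf9, Mt1, Hsp90, Ncoa2, Bag1 and Ppid values outside that rule were added after their values were seen. The genes and lists were chosen with earlier results of these data known.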

Additional observations from a re-analysis of the deposited data

How the results depend on the processing

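Alternatives were a stricter filter on nuclei (1000 genes or more, mitochondrial UMIs up to 1%), called doublets kept, nuclei thinned to 1000 UMIs, Leiden resolution 0.5, 1 CPM in place of 5, centring on the median gene, no UMI minimum and, chosen after seeing the data, removal of doublet clusters only over 40%. The neuronal Nr3c1 share was 8.33% (male) and 5.22% (female) when thinned, and 7.05% and 4.61% at resolution 0.5. The glial share was 31.9% and 24.3% under the stricter filter, 19.4% and 18.6% with doublets kept, 31.4% in the female library when thinned, and 26.0% and 24.2% with the 40% cutoff; it stayed above the neuronal share in every one of these. The count of targets higher in the female library was 2 in CA1 neurons when thinned, 1 in CA3 neurons at resolution 0.5 and 5 there without a UMI minimum. Of the 11 ratios past 2-fold, none changed sign over 77 alternatives and 5 values fell under 2-fold, each given beside its result. Over all 77 ratios and 539 alternatives, 73 values moved by more than counting error and 19 changed sign, all of ratios no larger than 0.57 in size. The causes were not tested. The stricter filter left 94 male and 23 female microglial nuclei, so depth limits what it can show there. No paired analysis was possible because each group has 1 library.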
